A study of Mus musculus with 6 samples.

Results

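Loss of Sox11 alone was examined in the epidermis of mouse embryos at embryonic day 16 on 2 of the 6 arrays of a series that also covers loss of Sox4 (Sox4cKO) and loss of both genes (dcKO). The 2 arrays were chosen by their label, Sox11cKO, and all genes on them were described. A cKO is a conditional knockout, here floxed Sox11 (fl/fl) cut by a Cre recombinase under the Krt14 promoter, which is active in basal keratinocytes. Cells that descend from them inherit the deletion, and cells of other lineages in the skin keep the gene. The labels give the strain as 129SvEx:C57BL/6 for all samples. The floxed stock had been derived from mice with floxed Sox4 and Sox11 that lacked Sox12, and the Cre mice were FVB/N. The genotype of the wild-type littermates is given only as wild type, so whether they carried floxed alleles, or whether any animal lacked Sox12, is not stated. Epidermis was peeled from dorsal skin after dispase digestion, and each array compared RNA of a Sox11cKO sample in one dye with RNA of a wild-type sample in the other. On replicate 1 the knockout was labelled with Cy5 and on replicate 2 with Cy3. There are thus 4 samples behind every value, 2 knockouts and 2 wild types.

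Sox11, Sox4 and Sox12 form the SoxC group of transcription factors, which bind DNA through an HMG box and are known for keeping embryonic precursor cells in a plastic state. At this stage the epidermis is stratifying. Basal cells divide below, spinous cells make Krt1 and Krt10, granular cells begin to make the proteins of the cornified envelope, and a transient outer sheet, the periderm, carries simple keratins such as Krt8, Krt18 and Krt19 and is later shed.

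Values are log2 ratios of knockout over wild type for each probe and array, and intensities are the brightness of each dye channel after normalization. A gene was called measured where the knockout or the wild type was well above background on both Sox11cKO arrays, which held for 11539 of 21371 named genes. Of the non-control spots, 40.0% to 41.1% were well above background in a channel of these arrays. Spread and p-values come from limma fitted to all 6 arrays with a coefficient for each genotype and 1 for the dye orientation. A probe was called at an adjusted p under 0.05 (Benjamini-Hochberg, two-sided) and an absolute log2 value over 1.5. The labels call the arrays biological replicates but do not say whether animals were pooled or litters shared.

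On these arrays the targeted gene could not be used to check the labels. Probe A_52_P160955 for Sox11 was not well above background in any of the 4 samples, with intensities of 32.1 in wild type and 30.4 in knockout on replicate 1, and 30.8 and 28.7 on replicate 2. Probe A_55_P2094721 gave 32.9 and 39.5 on replicate 1 and 43.0 and 38.2 on replicate 2, and was above background only in 1 of the wild types. The first probe was lower in both knockouts than in both wild types, at background, the second overlapped, and neither passed the test (mean log2 −0.09, limma adjusted p = 0.921, and 0.05, adjusted p = 0.979). Sox4, the close relative with overlapping function, was well measured, with intensities of 491 and 439 in wild type and 509 and 497 in knockout. Both knockouts lay slightly above both wild types (log2 0.05 and 0.18, adjusted p = 0.928). A further Sox4 probe also lay near 0 (0.07 and 0.09 on the log2 scale). Sox12 was at background in both knockouts.

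The 2 replicates differed in more than the dyes. Ddx3y, Eif2s3y and Uty, which lie on the Y chromosome, were well above background in both samples of replicate 1 and in neither of replicate 2, while Xist, the RNA that coats the inactive X chromosome, was above background on these arrays only in replicate 2. Knockout and wild type were therefore matched for sex on each array, but dye, sex and replicate number coincide and cannot be told apart.

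The wild-type samples of these arrays stood apart from those of the other genotypes, and for late differentiation genes the knockouts did so too. Among the 6 wild types of the series, both Sox11cKO partners had the lowest levels of late differentiation genes, and that of replicate 2 was lower still. The median log2 intensity of 34 granular and cornified envelope genes was 10.50 in the replicate 1 wild type and 9.59 in that of replicate 2, against 11.44 to 12.18 in the 4 wild types of the Sox4cKO and dcKO arrays. Of those 34 genes, 24 (70.6%) were lower in both Sox11cKO partners than in each of the other 4 wild types, which held for 14.99% of all measured genes. The cornified envelope gene Lce1a2 showed the span: its log2 intensity was 7.48 and 5.95 in the Sox11cKO partners and 13.38 to 16.14 in the others. In the Sox11cKO knockouts the granular median was 10.48 and 10.52, against 11.71 to 12.51 in the other knockouts. Lce1a2 was at 5.99 and 6.03 in them and at 13.97 to 16.70 in the other knockouts. Over all measured genes, 192 were lower in the replicate 2 wild type than in any other wild type by more than 1 log2 unit, against 1 to 6 genes for each other wild type. Among the knockouts, 42 genes lay lowest by that margin in Sox11cKO replicate 2, against 0 to 24 for each other knockout. The labels give embryonic day 16 for every sample. The part of these wild-type levels in the ratios was not tested.

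**Figure D1:**
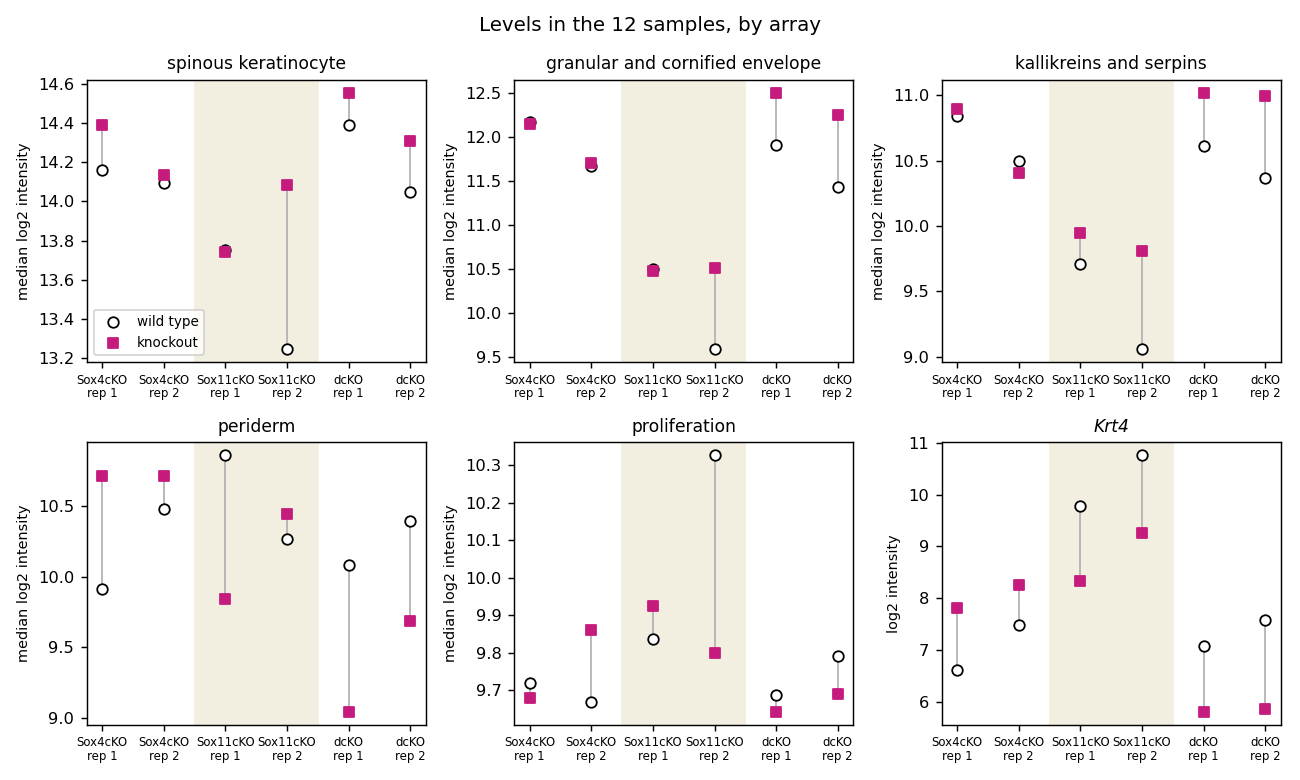
Median log2 intensity of 5 gene lists, and log2 intensity of Krt4, in the wild-type (open circles) and knockout (squares) sample of each of the 6 arrays, with a line joining the samples of an array and the Sox11cKO arrays shaded. The replicate 2 wild type sat lowest for spinous, granular and protease genes and highest for proliferation genes, while the 2 Sox11cKO samples lay at 10.48 and 10.52 for granular genes.

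The 2 Sox11cKO arrays shared little of their pattern. Across the 21406 probes measured in Sox11cKO, their log2 values had a correlation of −0.02 (Pearson) and −0.11 (Spearman), over probes, which are not independent. Replicate 2 spread more widely than replicate 1 (SD 0.331 against 0.232), and 106 probes exceeded 1.5 in absolute log2 value on it, against 22 on replicate 1. The Pearson correlation was as low between the 2 Sox4cKO arrays (−0.03 over 21260 probes) and was 0.55 between the 2 dcKO arrays (21582 probes).

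No probe of 55681 (0%) was called in Sox11cKO by limma, and the lowest adjusted p was 0.0951. At an unadjusted p under 0.05, 2080 probes (3.74%) were higher and 1843 (3.31%) lower, and with values computed from the scanner signals no probe was called either. With 1 array left out, between 1 and 40 probes were called, with 40 from replicate 2 alone and 1 from replicate 1 alone. Leaving out an array of Sox4cKO gave 12 calls and leaving out an array of dcKO gave 18, and all of those were higher. Among measured genes, 2631 (22.8%) were higher than wild type on both arrays and 2596 (22.5%) lower, and 5 (0.0433%) were above 1 and 3 (0.026%) below −1 on both. No value below passed the test unless stated, and the text gives each array. Where both knockouts are said to lie on the same side of both wild types, the share of all measured genes doing so was not counted. With 2 samples of each kind, such a separation is a description and no test.

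**Figure D2:**
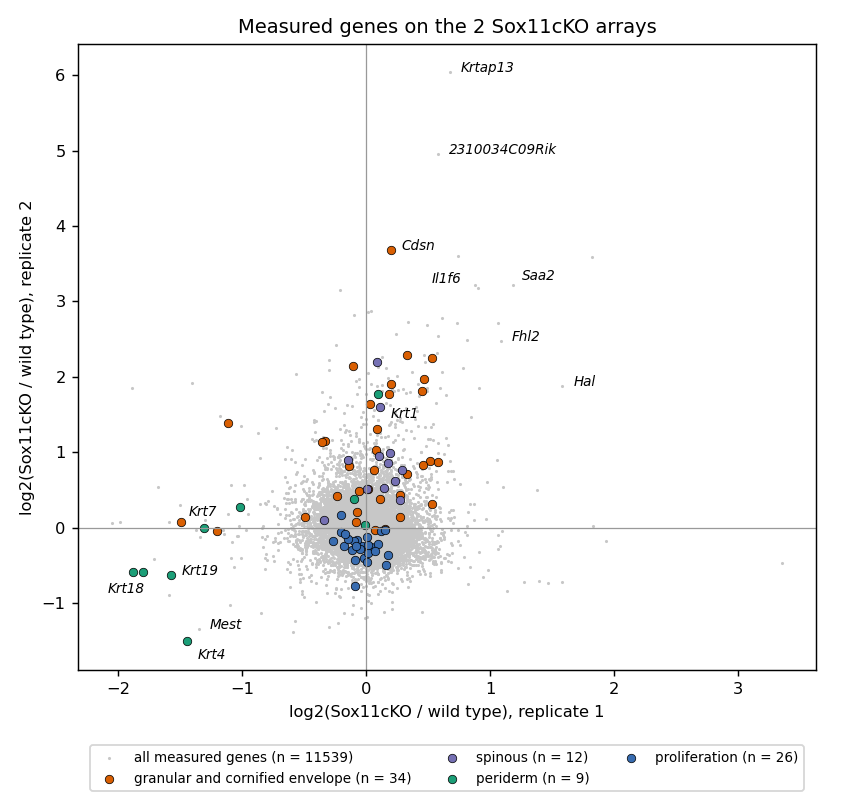
Log2 ratio of Sox11cKO over wild type of every measured gene on replicate 1 (horizontal) and replicate 2 (vertical), with members of 4 gene lists in colour. Granular and spinous genes stretch upwards along replicate 2 with little shift on replicate 1. Most periderm keratins lie at the left, though Krt17 and Krt23 are near 0 on replicate 1. Only a few genes, Krt4, Mest and Hal among them, lie far from 0 in the same direction on both arrays.

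Krt4, Krt18, Krt8 and Krt19, keratins of the periderm list, were 4 of the 12 lowest genes. Of 9 measured periderm keratins, 5 (55.6%) were below wild type on both arrays, 1 was above on both and 3 went opposite ways. Over all measured genes, 22.5% were below and 22.8% above on both. The periderm median log2 value was −1.31 on replicate 1 and −0.01 on replicate 2. An unadjusted p under 0.05 was reached by 5 lower and 1 higher, against 2.67% lower and 4.58% higher of all measured genes. Krt4, a keratin of stratified mucosal epithelia and periderm, had intensities of 874 in wild type and 321 in Sox11cKO on replicate 1, and of 1734 and 611 on replicate 2. Both knockouts lay below both wild types, and its log2 values of −1.44 and −1.51 were nearly equal (limma SE 0.14, adjusted p = 0.0951). It had the lowest p of any measured gene in Sox11cKO.

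Krt18 and Krt8, which pair with each other in simple epithelia, and Krt19 were lower on both arrays but by more on replicate 1. Krt18 intensity was 2573 in wild type and 697 in knockout on replicate 1, and 1372 and 917 on replicate 2. Krt8 gave 485 and 139 on replicate 1 and 297 and 199 on replicate 2. Krt19 gave 4787 and 1604 on replicate 1 and 6647 and 4317 on replicate 2. For each of these keratins both knockouts lay below both wild types, though they were picked on ratios of the same samples. The log2 values of Krt18 were −1.88 and −0.58 (adjusted p = 0.359), those of Krt8 −1.80 and −0.58 (0.510) and those of Krt19 −1.57 and −0.63 (0.557).

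Other keratins of the list followed less or not at all. Krt7, the last of the 5 below wild type on both arrays, was so by very little on replicate 2 (−1.31 and −0.01). Krt6a changed sign (−1.02 and 0.28), while Krt17 stayed near 0 on both (−0.01 and 0.04). Krt23 was near 0 on replicate 1 and higher on replicate 2 (0.09 and 1.78, adjusted p = 0.671). Krt13 also went opposite ways, below wild type on replicate 1 and above it on replicate 2. Cldn6, the only marker of the list that is not a keratin, was not above background in any sample.

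Krt4, Krt8, Krt18 and Krt19 also had higher levels in the wild-type samples of these arrays than elsewhere. Krt4 log2 intensity was 9.77 and 10.76 in the Sox11cKO partners and 6.62 to 7.59 in the other 4 wild types, so the Sox11cKO samples, at 8.33 and 9.25, lay between them. All of the 12 lowest genes had both Sox11cKO partners above each of the other 4 wild types, which held for 19.8% of all measured genes. These genes were picked on ratios to the same wild types, so this share too is no test.

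Among the other low genes, Upk1b, a tetraspanin of the uroplakin complex, and Cldn3, a tight junction claudin, were lower on both arrays. Upk1b gave intensities of 870 in wild type and 266 in knockout on replicate 1, and of 774 and 582 on replicate 2 (log2 −1.71 and −0.41, adjusted p = 0.598). Cldn3 gave 212 and 70.2 on replicate 1 and 288 and 155 on replicate 2 (log2 −1.59 and −0.89, adjusted p = 0.314). In neither gene did knockout and wild type overlap.

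Mest is an imprinted gene expressed from the paternal allele in embryonic tissue. Its intensities were 278 in wild type and 109 in knockout on replicate 1, and 583 and 230 on replicate 2. The 2 log2 values were −1.35 on each array, and the other Mest probes gave −0.93 and −1.40, and −0.67 and −0.60. The limma adjusted p was 0.694 with an SE of 0.41, in a fit that also holds the Sox4cKO arrays, where Mest read −2.36 and 0.54. In dcKO it was below wild type on both arrays (−1.65 and −1.52).

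Gng13, a G protein gamma subunit, gave 90.4 in wild type and 42.2 in knockout on replicate 1, and 175 and 85.9 on replicate 2 (log2 −1.10 and −1.02, adjusted p = 0.5005). Rhox4a, a homeobox gene of the X-linked Rhox cluster with near-identical copies that 1 probe may not tell apart, was above background in both wild types and in neither knockout. Its level was lower by at least 1.72-fold, with intensities of 46.7 and 69.9 in wild type (adjusted p = 0.359). Paqr6, a progestin receptor family member, was lower by all of its 3 probes, with log2 values of −0.59 and −1.38 on the brightest. Ch25h, which makes 25-hydroxycholesterol, and Mgst1, a membrane glutathione transferase, completed the lowest genes, both lower chiefly on replicate 2 (−0.57 and −1.24, and −0.30 and −1.32).

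**Figure D3:**
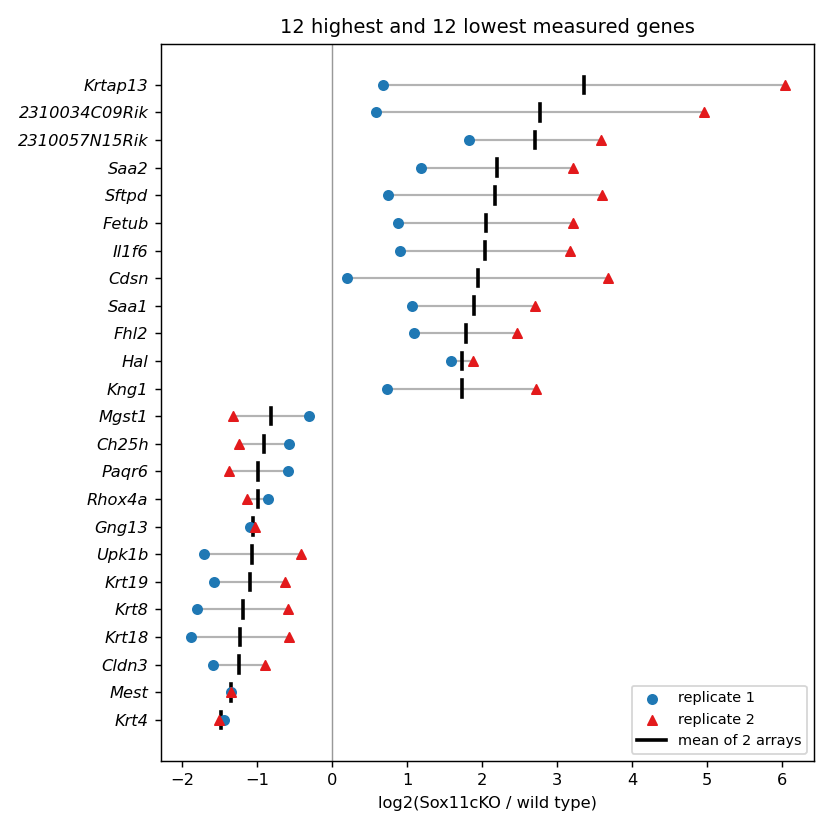
Log2 ratio of Sox11cKO over wild type for the 12 highest and 12 lowest measured genes with the same sign on both arrays, with replicate 1 as circles, replicate 2 as triangles and the mean of the 2 arrays as a bar. The higher genes were raised mostly on replicate 2, with Krtap13 from 0.67 to 6.04, whereas Krt4, Mest and Gng13 had nearly the same value on both arrays.

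The highest ratios were found on replicate 2, where the wild type was low. Krtap13, a keratin-associated protein gene, had intensities of 7088 in wild type and 11254 in knockout on replicate 1, and of 211 and 13884 on replicate 2. Its 2 knockouts lay closer together than its wild types, with log2 values of 0.67 and 6.04 (adjusted p = 0.510). 2310034C09Rik gave 23358 and 34653 on replicate 1 and 1587 and 49421 on replicate 2. All of the 12 highest genes had their lowest wild-type level in the replicate 2 wild type, against 23.7% of all measured genes. In 11 of the 12 (91.7%) both Sox11cKO partners lay below each of the other 4 wild types, against 14.99% of all measured genes. The genes were picked in part on these samples, so these shares are a description and no test.

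2310057N15Rik, known also as Krtap13-1, gave 203 in wild type and 720 in knockout on replicate 1, and 36.5 and 440 on replicate 2 (log2 1.82 and 3.59, adjusted p = 0.359), with the wild type above background on 1 array. Sftpd, surfactant protein D, a secreted lectin, gave 306 and 511 on replicate 1 and 47.7 and 578 on replicate 2. Its 2 probes read 0.74 and 3.60, and 0.98 and 2.39. Fetub and Kng1, both secreted proteins of the cystatin superfamily, had the same pattern, at 0.88 and 3.22 and at 0.74 and 2.72. The second Kng1 probe was not measured.

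Saa1 and Saa2, acute-phase serum amyloid proteins that are close paralogs and may share signal, were higher on both arrays. Saa1 intensity was 145 in wild type and 303 in knockout on replicate 1, and 88.7 and 581 on replicate 2 (log2 1.06 and 2.71, adjusted p = 0.250). Saa2 had log2 values of 1.19 and 3.22 (adjusted p = 0.282), with the wild type above background on replicate 1 only.

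Hal and Fhl2 had the lowest p of the 12 highest genes. Hal, histidine ammonia-lyase, which makes urocanic acid in the upper epidermis, had intensities of 225 in wild type and 674 in knockout on replicate 1, and of 175 and 646 on replicate 2. Both knockouts lay well above both wild types, and the log2 values of 1.58 and 1.88 were the most even of the 12 highest genes (SE 0.19, adjusted p = 0.0951). All 4 of these samples lay below the other 4 wild types of the series, which were at 1022 to 3191. The part of the low wild-type levels in the Hal ratios was not tested. With an offset of 50, without background subtraction, or with the 2 Sox11cKO arrays fitted alone, Hal passed the test, with adjusted p values of 0.0130, 0.00722 and 0.00414. It did not pass with values from the scanner files, the Feature Extraction log ratio, ComBat on colour, no replicate block or the filter on background. Over these alternatives its limma adjusted p reached 0.679. Fhl2, a LIM domain scaffold protein, had log2 values of 1.09 and 2.47 with the same adjusted p of 0.0951, and 0.00609 without background subtraction. None of the other alternatives named for Hal called Fhl2.

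Wfdc10, a small protein with a whey acidic protein domain, gave 92.7 in wild type and 129 in knockout on replicate 1, and 33.1 and 152 on replicate 2 (log2 0.48 and 2.20, adjusted p = 0.0951). Tmprss11f, a transmembrane serine protease, and Pla2g5, a secreted phospholipase, were lower in level but also higher on both arrays (0.64 and 1.19, and 0.40 and 1.60). In each of these genes the wild type was above background on 1 array.

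Differentiation genes of the suprabasal layers were higher in knockout than in wild type by a little on replicate 1 and by more on replicate 2. Of 12 measured spinous genes, 10 (83.3%) were higher on both arrays and none was lower on both, with medians of 0.12 on replicate 1 and 0.81 on replicate 2. Over all measured genes the medians were 0.00 on each array. Of all measured genes, 22.8% were higher on both arrays. An unadjusted p under 0.05 was reached by 8 spinous genes, all higher, against 4.58% of all measured genes as higher and 2.67% as lower. Krt1, a type II keratin of spinous cells, had intensities of 44671 in wild type and 47683 in knockout on replicate 1, and of 21851 and 66413 on replicate 2 (log2 0.11 and 1.60). Its partner Krt10 gave 0.18 and 0.86. Calml3, a calmodulin-like protein, had the largest value of the list on replicate 2 and almost none on replicate 1 (0.09 and 2.20).

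Among granular and cornified envelope genes, 34 of 61 on the array were measured, 20 of them (58.8%) were higher on both arrays and 1 was lower on both, against 22.8% and 22.5% of all measured genes. Medians were 0.08 and 0.83, and 18 reached an unadjusted p under 0.05 as higher and 2 as lower, against 4.58% and 2.67%. Cdsn, corneodesmosin, which holds corneocytes together, gave 619 in wild type and 711 in knockout on replicate 1, and 45.5 and 585 on replicate 2 (log2 0.20 and 3.68, adjusted p = 0.687). Here too the replicate 2 wild type lay far below the other 3 samples. Ivl, involucrin, an early envelope protein, had log2 values of 0.33 and 2.30, and Lor, loricrin, the main envelope protein, 0.08 and 1.31. Klk5, a protease of desquamation, gave 0.46 and 1.98, Hrnr, hornerin, 0.45 and 1.82, and Crct1 0.20 and 1.91.

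The named Lce genes differed. Those of the Lce3 family were above wild type on both arrays, with Lce3c at 0.51 and 0.89 and Lce3d at 0.58 and 0.88, each with the wild type above background on 1 array. Lce1a1 and Lce1a2 were lower on replicate 1 and near 0 on replicate 2 (−1.21 and −0.05, and −1.49 and 0.08), and Lce1b was not above background in any of the 4 samples. Members of a family share sequence, so their probes may share signal. Sprr3, a small proline-rich envelope protein, went opposite ways (−1.12 and 1.40).

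Genes of the lipid barrier followed the envelope genes with smaller values. Of 22 measured, 15 (68.2%) were higher on both arrays, against 22.8% of all measured genes, with medians of 0.13 and 0.53. Aloxe3 and Alox12b, the lipoxygenases that act on barrier ceramides, gave 0.39 and 1.19, and 0.13 and 1.01, and Smpd1, acid sphingomyelinase, gave 0.16 and 1.65. Among kallikreins, serpins and their inhibitors, 8 of 15 (53.3%) were higher on both arrays, against the same 22.8% (medians 0.18 and 0.69). Serpinb11 was the lowest of them, at −1.16 and −0.02, and Serpinb2 was higher on replicate 1 alone (1.08 and −0.24).

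Of 14 measured alarmins and stress keratins, 7 (50%) were higher on both arrays and 2 (14.3%) lower, against 22.8% and 22.5% of all measured genes. Medians were 0.08 and 0.52. In limma, 5 reached an unadjusted p under 0.05 as higher and 1 as lower, against 4.58% and 2.67%. Il1f6, the interleukin 36 alpha gene, had intensities of 389 in wild type and 728 in knockout on replicate 1, and of 32.6 and 294 on replicate 2 (log2 0.90 and 3.17, adjusted p = 0.477). The wild type was above background on replicate 1 only. Its relative Il1f9 gave 0.37 and 2.06, and Il1f8, Stfa1 and Stfa3 were also higher on both arrays. S100a9, a subunit of calprotectin, was lower on both arrays (−0.83 and −0.26), and Krt6a and Krt6b changed sign between arrays.

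Transcription factors of epidermal differentiation had medians of −0.12 and 0.18. Of 23 measured, 5 (21.7%) were higher on both arrays and 3 (13.0%) lower, against 22.8% and 22.5% of all measured genes. Hopx gave 0.01 and 1.14, Ehf 0.16 and 0.92, and Prdm1 0.07 and 0.72. Elf5 was lower on both arrays (−0.39 and −0.43).

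Because the spinous and granular values rest on replicate 2, the list medians were also taken without it. From replicate 1 with the dye coefficient the median was 0.06 for spinous and 0.13 for granular genes, and from replicate 2 it was 0.84 and 0.61. The knockout level differed little between replicates for granular genes (10.48 and 10.52, median log2 intensity), whereas the wild-type level was 10.50 on replicate 1 and 9.59 on replicate 2. Levels of the 2 arrays were read in opposite dyes, and the part of the dye was not tested.

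Of 9 red blood cell genes on the array, 7 were measured. Higher on both arrays were 4 (57.1%), against 22.8% of all measured genes, 3 went opposite ways and none reached an unadjusted p under 0.05. The summed intensity of the list was 20287 in wild type and 27944 in knockout on replicate 1, and 6918 and 12342 on replicate 2. Hbb-bh1 was not above background in any of the 4 samples. Their part in the result was not tested, and less RNA per cell cannot be told from fewer cells in such bulk samples.

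Dermal fibroblast genes had no shared direction. Of 11 measured, 10 went opposite ways, as did 6312 of all 11539 measured genes, with medians of 0.94 on replicate 1 and −0.45 on replicate 2. Col1a1 intensity was 171 in wild type and 414 in knockout on replicate 1, and 646 and 393 on replicate 2. Summed over the 14 genes on the array, the wild types gave 7685 and 9247 and the knockouts 8211 and 8757, so the knockouts lay between the wild types. Pdgfra and Dpt were not above background, and the part of dermal RNA in other values was not tested.

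Markers of further cell types were few. For skeletal muscle 8 of 13 and for endothelium 6 of 8 genes were not above background in any sample, including Myog, Cdh5 and Tie1. The leukocyte gene Ptprc was also not above background. Of the immune genes that were measured, Cd74, the invariant chain of antigen presentation, was lower on both arrays (−0.75 and −0.44) and Csf1r higher (0.17 and 0.81). Melanocyte genes had medians of 0.14 and −0.19.

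Basal keratinocyte genes showed no shared direction. Of 13 measured, 4 (30.8%) were higher and 1 (7.69%) lower on both arrays, against 22.8% and 22.5% of all measured genes. No member reached an unadjusted p under 0.05. Krt5 and Krt14, the basal keratin pair, gave 0.13 and 0.27, and 0.11 and 0.37. Trp63, the master factor of stratified epithelia, gave −0.21 and 0.17, and Itga3, an integrin of the basement membrane, was lower on both (−0.34 and −0.24).

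Proliferation genes lay slightly below wild type. Of 26 measured, 14 (53.8%) were lower on both arrays and none was higher on both, against 22.5% and 22.8% of all measured genes. Medians were −0.04 on replicate 1 and −0.24 on replicate 2. Mcm3, of the replicative helicase, had the largest value at −0.09 and −0.78 and was the only member with an unadjusted p under 0.05. Birc5 gave −0.09 and −0.43 and Mki67 −0.27 and −0.18. Among the wild types of the series, 23 of the 26 were highest in the replicate 2 wild type of Sox11cKO, against 34.2% of all measured genes.

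Genes that the study names as SoxC targets stayed close to wild type. The study chose the list in part on the arrays of this series, so it is no independent evidence of a direction. Of 13 measured, 5 (38.5%) were lower and 3 (23.1%) higher on both arrays, against 22.5% and 22.8% of all measured genes. Their median was −0.10, where the medians of the same genes were −0.76 in Sox4cKO and −0.88 in dcKO. Fscn1, which bundles actin, was lower on both arrays (89.5 and 66.6 on replicate 1, 122 and 107 on replicate 2, log2 −0.43 and −0.19). Tubb3, a neuronal beta tubulin, was higher on both (102 and 144, then 87.9 and 159, log2 0.49 and 0.86, adjusted p = 0.651). Marcksl1, Pxdn and Tmsb10 lay at −0.27, −0.25 and −0.22 on average.

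Genes of actin and cell motility had a median of −0.01 over 24 measured members. Cnn3, calponin 3, was higher on replicate 2 (−0.03 and 1.37), and Actn1, alpha-actinin, was lower on both arrays (−0.23 and −0.34). Fn1, fibronectin, was higher on both (0.39 and 0.27). Among other Sox genes, Sox9 gave −0.20 and −0.19 and Sox21 0.33 and −0.03.

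Signalling and metabolic genes showed small values. List medians were −0.03 for 15 Wnt and hair follicle genes, −0.10 for 10 Notch genes, −0.13 for 9 genes of the EGF receptor family, 0.09 for 20 immediate early and stress genes, 0.07 for 13 hypoxia and glycolysis genes and −0.04 for 15 genes of cholesterol synthesis. In the Wnt and hair follicle bud list, Dkk4 and Sostdc1, both inhibitors expressed in the placode, were lower on replicate 2 (−0.04 and −0.74, and −0.15 and −0.44), and Wnt10a was lower on replicate 1 (−0.69 and −0.06). Jag1, a Notch ligand, gave −0.06 and −0.63. Erbb3 gave −0.43 and −0.11, and the feedback inhibitor Errfi1 went opposite ways (−0.29 and 0.78). The hypoxia-inducible genes Bnip3 (−0.34 and 1.55) and Ndrg1 (−0.39 and 0.90) also changed sign between arrays. Hspa1a, the inducible Hsp70, was higher on both (0.38 and 0.56), and Dhcr7, of cholesterol synthesis, was lower on both (−0.30 and −0.59).

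Sox11 loss was then set against Sox4 loss. In the contrast of Sox11cKO with Sox4cKO, 1 probe of 55681 (0.0018%) was called by limma, that of Krt4. Krt4 was higher than wild type in Sox4cKO (log2 1.19 and 0.78) and lower in Sox11cKO, a difference of −2.46 on the log2 scale (SE 0.19, adjusted p = 0.0353). The call was lost with the filter on background (0.116), without the replicate block (0.103), with the arrays compared fitted alone (0.0672) and with the Feature Extraction log ratio (0.669). It was also lost when either Sox11cKO array or replicate 1 of Sox4cKO was left out. The wild types differed as well, since Krt4 was at 9.77 and 10.76 log2 intensity in the Sox11cKO partners and at 6.62 and 7.48 in those of Sox4cKO. Tes and Plppr3, near wild type in Sox11cKO (0.12 and 0.14, and 0.05 and 0.10) and lower in Sox4cKO, did not pass this contrast (adjusted p = 0.232 each). Tes was called without background subtraction, and both were called with either dcKO array left out.

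Sox11 loss differed from loss of both genes at more probes. In the contrast of dcKO with Sox11cKO, 78 probes (0.14%) were called by limma, of which 59 (0.106%) were higher in dcKO. On the Feature Extraction log ratio no probe was called, with 4118 at an unadjusted p under 0.05. Without Sox11cKO replicate 2 the count was 41 and without dcKO replicate 2 it was 152. Among the 34 measured granular genes, 5 passed an adjusted p of 0.05, against 0.373% of measured genes (0.243% higher and 0.13% lower in dcKO). Lce1a2, Lce1a1, Lce1j and Sprr2d were higher in dcKO than in Sox11cKO, and Prr9 was lower. Lce1b, at background in Sox11cKO and its wild types, was above wild type in dcKO by 4.22 and 5.03 on the log2 scale, and 2310050C09Rik, also at background in all 4 Sox11cKO samples, by 4.28 and 4.35. For these genes a difference from Sox11cKO carries no more than the dcKO value. Tmem229b and Sdcbp2, which were measured in Sox11cKO, were higher in dcKO by 4.21 and 3.70 (adjusted p = 0.000119 and 0.000198). Their intensities in the 4 samples of the Sox11cKO arrays were low, at 59.0 to 97.0 and at 35.0 to 53.5. The Sdcbp2 wild type was above background on 1 of these arrays, and its wild types on the other arrays lay at 84.9 to 1249. Cdsn, Ivl, Hal and Klk5 were above wild type on both arrays of Sox11cKO and of dcKO, and their differences did not pass the test (adjusted p = 0.977, 0.990, 0.919 and 0.983). A difference that does not pass does not show that the values are alike. Levels of all of these genes were lower on the Sox11cKO arrays than on the dcKO arrays, in knockout and in wild type. Ivl, for one, was at 1018 and 870 in Sox11cKO and at 4788 and 4388 in dcKO.

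Tes, a LIM protein of focal adhesions, was at −1.64 and −1.60 in dcKO and differed from Sox11cKO by −1.76 (SE 0.19, adjusted p = 0.0103). Plppr3, a lipid phosphate phosphatase-related membrane protein, differed by −2.51 (SE 0.20, adjusted p = 0.00147). Plppr3 lost the call with the Feature Extraction log ratio (0.388) and Tes with that ratio (0.388) and without Sox11cKO replicate 1 (0.0857) or 2 (0.146).

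Some genes with high ratios to wild type in Sox11cKO had lower ratios in dcKO. Sftpd was at −3.72 and −1.14 in dcKO, a difference of −4.60 from Sox11cKO (SE 0.46, adjusted p = 0.00675), and Kng1 at −2.61 and −2.52, a difference of −4.29 (SE 0.46, adjusted p = 0.0105). 2310057N15Rik, at −3.59 and 0.08 in dcKO, differed by −4.46 (adjusted p = 0.0208). Its knockout intensities were higher in dcKO, at 1188 and 10244, than in Sox11cKO, at 720 and 440. Its wild types lay at 203 and 36.5 on the Sox11cKO arrays, against 9013 to 16435 elsewhere. Sftpd wild types lay at 306 and 47.7, against 808 to 1537, and its knockouts overlapped between the genotypes. For Kng1 and Wfdc10 the knockouts were lower in dcKO. The part of the wild-type levels was not tested. Wfdc10, at −1.11 and 0.38 in dcKO, differed by −1.70 (0.0103), whereas Krtap13 at 0.0603 and Fetub at 0.104 did not pass. Calls were less stable for these genes. Without the replicate block the adjusted p was 0.215 for Sftpd and 0.308 for 2310057N15Rik, and without Sox11cKO replicate 2 it was 0.0919 and 0.192. Wfdc10 lost the call without the replicate block (1.00) and without Sox11cKO replicate 1 (0.0865) or 2 (0.146), and Kng1 with the filter on background (0.0546). Krt4 was lower in both, at −1.27 and −1.72 in dcKO, and its difference of −0.02 had an SE of 0.19 (adjusted p = 0.993).

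**Figure D4:**
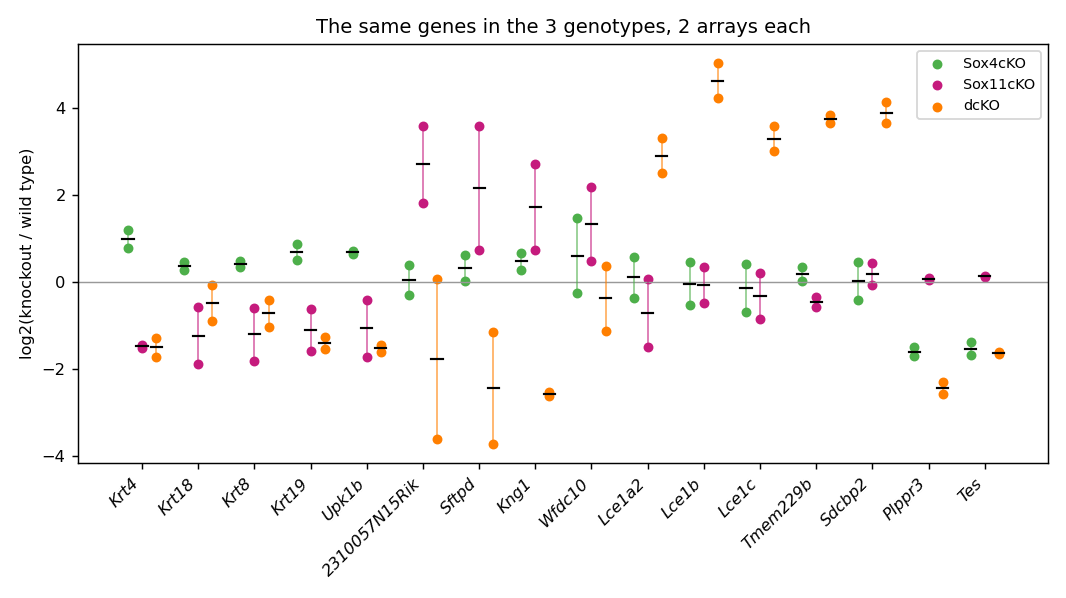
Log2 ratio of knockout over wild type on each array (points) and the mean of the 2 arrays (bars) for 16 genes in Sox4cKO, Sox11cKO and dcKO. Krt4 was above 0 in Sox4cKO and below in the other genotypes, Sftpd and Kng1 were above 0 in Sox11cKO and below in dcKO, and the Lce1 genes, Tmem229b and Sdcbp2 were raised in dcKO, with Lce1b at background in all 4 Sox11cKO samples.

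Because the deleted gene encodes a DNA-binding protein, the promoters of the 12 highest and 12 lowest genes were read for the SOX core letters AACAAAG on both strands, in RefSeq sequence of GRCm38.p6 from 250 bases before to 50 after each start. Of these genes, 9 of the highest and 9 of the lowest had a promoter in the table. The letters stood in 2 of 12 promoters of the highest genes and in 0 of 13 of the lowest, against 5.85% of 32851 promoters. The letters AACAAT, which share their first 5 bases with it, stood in 0 of 12 and 0 of 13, against 10.7%. A match of letters is a description, not a bound site, and the absence of a match says nothing of the factor. The matches, with the letters in capitals on the gene's strand, lay in the promoters of Fetub (chr16:22918174-22918203, plus strand) and Krtap13 (chr16:88751811-88751840, minus strand, read there as the reverse complement).
Fetub: gcccaggcagaAACAAAGtactgggcggct
Krtap13: agctctttggcCTTTGTTacaacacccata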

How the data were processed

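RNA of knockout and wild-type epidermis was hybridised in 2 colours to Agilent mouse arrays, 6 in all, on 1 slide and in 1 scan. The authors extracted signals with Feature Extraction 11.0.1.1 (per the labels and methods). The deposited scanner files hold the intensity of both channels as median pixel brightness with local background, and a log10 ratio of Feature Extraction. The authors' deposited series table holds log2 values, which were checked here against log2(knockout/wild type) computed from the scanner files with normexp at an offset of 16 and loess: the slope was 1.00 (2 decimals) on every array. The methods name a removal of the colour effect with ComBat, which the table does not show.

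The table values were fitted with limma 3.58.1 in R 4.3.3 (degrees of freedom: 2 residual, 6.65 prior). A coefficient for dye orientation was used and not ComBat, and serves as the replicate block. Deviations from the genotype mean of arrays with the same number correlated at r = 0.26, 0.31 and 0.33, and the pairing comes from the labels' numbers, which coincide with the dye. The fit was run on simulated data for Sox11cKO against wild type over 55681 probes, with normal noise and variances drawn from the fitted prior. At an adjusted p under 0.05 alone, without the fold threshold, it recovered 99% of changes of 1.5 and 100% of changes of 3 on the log2 scale, with 14 false calls. Simulated arrays of a genotype differed only by noise and dye, so these shares do not measure what was missed on the real arrays.

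Channel intensities were taken after loess and Aquantile normalization. A fold given as at least a value compares the bright channel with the higher of the lowest signal well above background and the dim probe's own signal. RefSeq accessions and symbols of GRCm38.p6 gave names to 28348 of 55681 probes, and the brightest probe represented a gene. Named genes were Sox11, Sox4 and Sox12, the 12 highest and 12 lowest with the same sign on both arrays, the 10 with the lowest p, the 6 with the lowest adjusted p in each contrast, sex-linked genes, and in each list up to 4 by size and 6 by p. Lists were described by counts and medians. Genes singled out besides these were chosen after their values were seen. Members and lists were chosen with earlier results of these data known.

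Alternatives were values from the scanner files, an offset of 50, no background subtraction, the Feature Extraction log ratio, the ComBat method on colour, written out in R, no replicate block, only the arrays compared, a filter to probes with either channel above background on at least 2 arrays, and leaving out each array.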

Additional observations from a re-analysis of the deposited data

Results flagged for a closer look

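Wild-type levels of the gene lists and named genes were examined over the 6 wild-type samples of the series. Only 39 of them are counted here, those of chosen lists and of genes named for their ratio or p, with Tes and Plppr3. In 6 of the 39, a sample's gap to its nearest neighbour, as a share of the whole range, exceeded Dixon's critical value for 6 samples. Chance flags about 1 in 20 such groups, and the levels are not independent of each other. The wild type of Sox11cKO replicate 2 was the lowest of the 6 for the median of stress keratins and alarmins (share 0.655), for Krtap13 (0.679) and for 2310034C09Rik (0.691), and the highest for the median of proliferation genes (0.745). The wild type of Sox11cKO replicate 1 was the highest for the median of basal keratinocyte genes (0.641). For Plppr3 the wild type of Sox4cKO replicate 1 was the lowest (0.754). Krtap13 and 2310034C09Rik were named for ratios that rest on the same wild-type sample, so the chance rate does not apply to them. Levels outside the 39 exceeded the value too. Among them, the wild type of Sox11cKO replicate 1 was lowest for the melanocyte median (0.916). That of replicate 2 was lowest for the immediate early and stress median (0.668), Hopx (0.849) and Krt14 (0.819). For Mylpf the wild type of Sox4cKO replicate 2 was highest (0.765).

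The effect of Sox11 loss differed from that of Sox4 loss, as a contrast of the limma model, for Krt4 (−2.46 on the log2 scale, Sox11cKO minus Sox4cKO). Differences from dcKO passed the same test for 13 of the named genes, given here as dcKO minus Sox11cKO on the log2 scale. Those below 0 were Sftpd at −4.60, 2310057N15Rik at −4.46, Kng1 at −4.29, Plppr3 at −2.51, Tes at −1.76 and Wfdc10 at −1.70. Those above 0 were Lce1b at 4.70, Tmem229b at 4.21, 2310050C09Rik at 4.15, Sdcbp2 at 3.70, Lce1c at 3.62, Lce1a2 at 3.62 and Lce1a1 at 2.87. Lce1b and 2310050C09Rik were at background in all 4 Sox11cKO samples, so their differences carry no more than the dcKO values. The wild-type partners of the Sox11cKO arrays had lower levels of the Lce1 genes, Sdcbp2, 2310057N15Rik and Sftpd than the other wild types. The part of that in these differences was not tested.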

How the results depend on the processing

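The count of called probes in Sox11cKO was 0, and 0 as well with values from the scanner files, with the Feature Extraction log ratio, with ComBat on colour, without the replicate block and with the filter on background. It was 1 with an offset of 50, 7 without background subtraction and 2 with only the arrays compared, and 1 to 40 with 1 array left out. In the contrast with Sox4cKO the count of 1 became 2 without background subtraction and 0 with the Feature Extraction log ratio, without the replicate block, with only the arrays compared and with the filter on background, and 0 to 18 with 1 array left out. In the contrast of dcKO with Sox11cKO the count of 78 became 0 with the Feature Extraction log ratio, was 56 without the replicate block, and ranged from 41 to 152 with 1 array left out. Probe A_55_P2094721 for Sox11, at 0.05, changed sign without background subtraction (−0.00091) and with the Feature Extraction log ratio (−0.11), and ran from −0.45 to 0.54 with 1 array left out. The proliferation median of −0.14 ran from −0.31 to −0.013 with 1 array left out. Medians of periderm, spinous and granular genes moved by less than the spread of the 2 arrays under every alternative run, but with 1 array left out they ran from −1.37 to 0.06, from 0.06 to 0.84 and from 0.13 to 0.61. No gene among the highest, the lowest or those with the lowest p changed sign under any alternative. Precision was limited by having 2 arrays for each genotype, and an array left alone in its genotype is assumed to vary like the others.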
